A study of Mus musculus with 6 samples.

Results

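The comparison set the L1 cord, the uppermost lumbar segment, of mice with a pancreatic tumour in the sciatic nerve against the same segment of vehicle controls. It used 4 of the 6 arrays deposited, 2 labelled N-inv and 2 labelled PBS, and described all 45037 probe sets other than array controls. Of these, 34945 had 1 gene symbol, and together they measured 18193 genes. All mice were male SCID mice, a strain with severe combined immunodeficiency that makes no mature T or B cells, so every group here carried that defect. Per the labels their age was 9 weeks at first and 15 weeks when the cord was taken, 6 weeks after the injection. Mice of the N-inv group had received Capan-1 cells, a line from a human pancreatic cancer, in the left sciatic nerve. The PBS group was the control of the model, and the labels do not say where the vehicle was given. The remaining 2 arrays, from mice that carried Capan-1 cells subcutaneously (SC), are no part of the comparison. The labels do not say whether arrays of a group stem from different animals, so the p-values below measure only the spread between these samples, which may be technical. The labels do not say which side of the segment was taken.

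Nerve invasion, astrocyte activation and cachexia are all in the title of the study. The comparison asks how the cord at L1 differs when the tumour grows in the sciatic nerve. Whether the L1 samples hold neurons with axons in that nerve was not tested. Motor neurons of the lumbar cord send axons into peripheral nerves, and sensory neurons of the dorsal root ganglia send theirs into the dorsal horn. When a peripheral axon is damaged, its neuron switches on transcription factors such as Atf3, growth-associated proteins and neuropeptides. Around such neurons microglia, the resident macrophages of the cord, multiply and take on a phagocytic state, and astrocytes enlarge and make more of the filament protein GFAP. Cytokines of the interleukin 6 family act on both neurons and astrocytes through the kinase JAK and the transcription factor STAT3.

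The promoters of 3 genes are shown because these genes stand near the ends of the differences reported here and because each window holds a short motif of a factor known from its pathway. They were picked after their values were seen. Sprr1a and Socs3 were among the genes highest in N-inv relative to PBS, and Hspa1b was the gene with the widest gap on the lower side. Each sequence is RefSeq's on assembly GRCm38.p6, runs 5′ to 3′ on the gene's own strand, and covers the 250 bases before the start of transcription. All 3 genes lie on the minus strand. Capitals mark the motif searched, which is TGANTCA (AP-1, bound by dimers of Jun and related proteins) in Sprr1a, TTCNNNGAA (STAT) in Socs3 and GAANNTTC (heat shock element) in Hspa1b.
Sprr1a, chr3:92485882-92486131: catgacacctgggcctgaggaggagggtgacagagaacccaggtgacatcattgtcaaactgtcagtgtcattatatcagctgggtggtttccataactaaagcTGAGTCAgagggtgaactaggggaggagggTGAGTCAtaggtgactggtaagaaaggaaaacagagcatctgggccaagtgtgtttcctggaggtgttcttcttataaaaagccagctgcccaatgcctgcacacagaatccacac
Socs3, chr11:117969367-117969616: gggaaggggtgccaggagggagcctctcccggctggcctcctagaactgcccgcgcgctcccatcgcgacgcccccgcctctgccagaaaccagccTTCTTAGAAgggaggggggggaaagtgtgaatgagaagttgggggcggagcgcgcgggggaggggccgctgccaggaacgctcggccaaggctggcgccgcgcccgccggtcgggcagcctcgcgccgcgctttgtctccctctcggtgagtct
Hspa1b, chr17:34959239-34959488: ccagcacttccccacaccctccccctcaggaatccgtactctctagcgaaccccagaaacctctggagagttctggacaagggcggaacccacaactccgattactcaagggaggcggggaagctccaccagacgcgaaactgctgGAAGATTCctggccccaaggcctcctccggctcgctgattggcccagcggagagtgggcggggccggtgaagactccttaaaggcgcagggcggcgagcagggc
The AP-1 matches of Sprr1a began 146 and 116 bases before the start, the STAT match of Socs3 began at 154 and the heat shock match of Hspa1b at 104. Among all 32851 promoter windows of this length, searched on both strands, 6.75% held TGANTCA, 7.02% held TTCNNNGAA and 6.69% held GAANNTTC. None of these motifs overlapped another in the windows printed. For the 20 genes with the widest gap on each side, windows were found for 15 of the higher and 18 of the lower genes. TGANTCA stood in 2 of the 15 higher and 1 of the 18 lower genes, TTCNNNGAA in 2 and 1, and GAANNTTC in 0 and 2. The cyclic AMP response half-site TGACG stood in 3 of 15 higher and 4 of 18 lower genes, against 17.8% of all windows. These matches are a description of letters and not of binding.

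The arrays of the groups were close to each other. The correlation of log2 values was 0.982 between the PBS arrays, 0.983 between the N-inv arrays and 0.980 to 0.981 between arrays of different groups. The median absolute log2 difference per probe set was 0.168 between the PBS arrays, 0.159 between the N-inv arrays and 0.127 between the group means. A group mean varies less than a single array, so the value between means cannot be set directly against those between arrays. RNA integrity can be read from control probes: for Gapdh the 3′ to 5′ ratio was 2.82 and 3.02 in PBS and 3.12 and 3.38 in N-inv, higher in both N-inv arrays. That of Actb was 3.05 and 3.57 in PBS and 3.32 and 3.42 in N-inv, and overlapped. The part of this in the gene values was not tested. The tissue carried the genes of lumbar cord, with Hoxc10 between 4504 and 6052 and the myelin gene Mbp between 68850 and 79330 scaled intensity units in the 4 arrays. The acetylcholine-synthesising enzyme Chat, which defines motor neurons, was dim, at 171.1 and 165.4 in PBS and 201.5 and 190 in N-inv. Eif2s3y, on the Y chromosome, lay between 2343 and 2623 in the 4 arrays, Kdm5d between 560.3 and 817 and Uty between 383.3 and 453.7, while Xist lay between 137.1 and 171.7.

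Over all probe sets, 1 gene passed the test. In limma, 1 of 27022 probe sets tested had a Benjamini-Hochberg adjusted p under 0.05, which is 0.00370% of them. At an unadjusted p under 0.05 there were 1105 probe sets higher in N-inv (4.09%) and 797 lower (2.95%). When the prior variance was allowed to follow intensity, an alternative fit, limma called 55 probe sets, 47 higher (0.174%) and 8 lower (0.0296%). These 55 probe sets named 40 genes, 35 higher and 5 lower. The differences were uneven in direction: of the 18193 genes measured, 56.0% had a higher mean in N-inv, and the median log2 difference was 0.03. Above the intensity filter the share was 60.1%. As deposited, the median was 262.6 in PBS replicate 1 and between 250 and 250.7 in PBS replicate 2 and the N-inv arrays. Scaling to a common median thus lowered PBS replicate 1 relative to the others, and its part in this unevenness was not tested. Between arrays without overlap, 22.2% of all genes lay higher and 14.5% lower in N-inv. Among the 12622 genes above the intensity filter, 64 (0.507%) lay higher by a gap of at least 1.5-fold and 22 (0.174%) lower. The gap is the distance between the nearest arrays of the groups on the log2 scale used. Without a filter on dim probe sets limma called 0, and it called 8, all higher, when the filter stood at the 60th percentile. With 2 arrays a group, the smallest two-sided p that exact permutation can give is 0.333, so no such test was used.

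**Figure D1:**
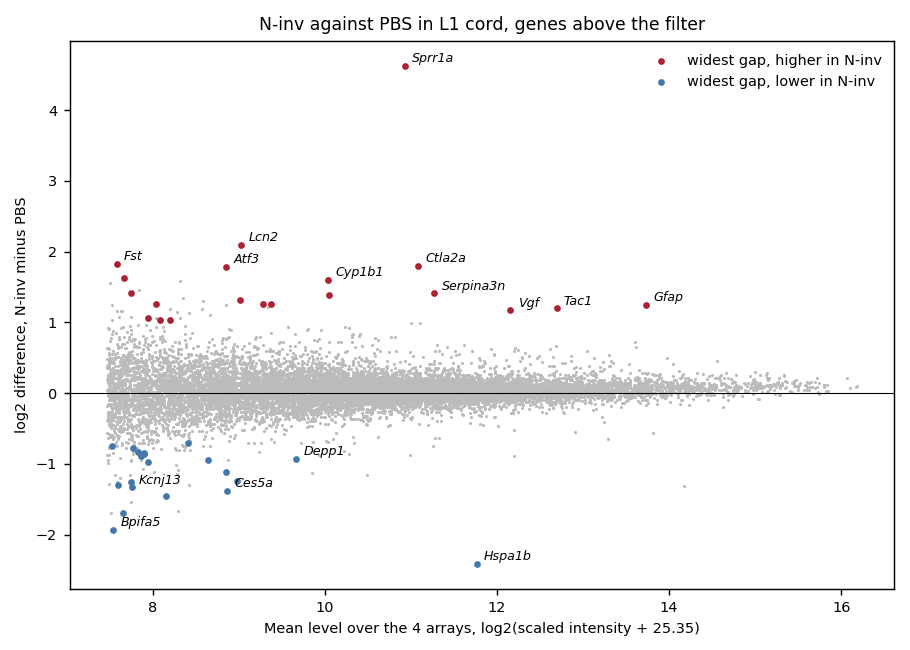
Each point is 1 of the 12622 genes above the filter, with its mean level over the 4 arrays, as log2(scaled intensity + 25.35), on the horizontal axis and its log2 difference, N-inv minus PBS, on the vertical axis. Red and blue points are the 20 genes with the widest gap in each direction. Sprr1a stands alone at 4.63, and Hspa1b is the lowest at -2.41.

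Sprr1a, a small proline-rich protein that neurons make while their axons regrow, was the gene that passed. It measured 111.4 and 140.1 in PBS and 4098 and 3331 in N-inv. Both PBS arrays lay below the filter value of 151.8, and both N-inv arrays lay far above it. Sprr1a thus passed the filter through N-inv alone, so its direction was fixed by the filter and supports nothing. Without a filter its adjusted p in limma was 0.449. The means were 125.7 ± 20.3 in PBS and 3715 ± 543 in N-inv (SD, n = 2 each), a ratio of 29.5. It rose by a log2 difference of 4.63 ± 0.17 (SE; limma's adjusted p = 0.0455). The nearest arrays of the groups were 20.3-fold apart. The difference lay between 4.07 and 4.86 in the 13 alternatives that give an adjusted p, and the threshold was missed in 10 of them. In limma the adjusted p was 0.642 without PBS replicate 1, 0.639 without PBS replicate 2, 0.0838 without N-inv replicate 1 and 0.0649 without N-inv replicate 2. The second widest gap on the higher side, of Lcn2, was 3.38-fold.

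Genes of axon injury and regeneration lay higher in N-inv. Of 43 measured genes 35 were higher and 8 lower, with a median log2 difference of 0.30 against 0.03 over all genes. In 28 of them the arrays did not overlap and N-inv was higher, where 22.2% of all genes did so, and in 4 N-inv was lower. Of the 39 above the filter, 16 had an unadjusted p under 0.05 and were higher, against 3.92% of genes above the filter, and 0 were lower, against 1.95%. Counted by the 1.5-fold gap, 7 lay apart, where 0.507% of genes above the filter did. The differences ran from -1.50 to 4.63. Of those above the filter, 2 had 1 group mean below the filter value. Sprr1a was 1 of these, and it is counted among the 16 and the 7 and sets the upper end of the range.

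Atf3, the transcription factor that marks neurons with a damaged axon, measured 236.8 and 133.9 in PBS and 594.7 and 780 in N-inv. Both N-inv arrays lay above both PBS arrays, by a log2 difference of 1.79 ± 0.28 (SE) and an adjusted p of 0.579 in limma, or 0.0216 with the trend. Jun, which pairs with such factors and was chosen after its values were seen, measured 1707 and 1916 in PBS and 2350 and 2277 in N-inv, a smaller difference of 0.35. The growth cone protein Gap43 measured 4581 and 5238 in PBS and 7893 and 7343 in N-inv. It was higher by 0.63 ± 0.14 (SE; limma's adjusted p = 0.625, or 0.0226 with the trend). Ecel1, a membrane peptidase of injured neurons, measured 1109 and 1383 in PBS and 2263 and 2102 in N-inv, and was named because the trend fit called it. The signalling inhibitor Socs3 and the peptides Gal, Crh and Npy belong to this list too and are described with their own pathways.

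**Figure D2:**
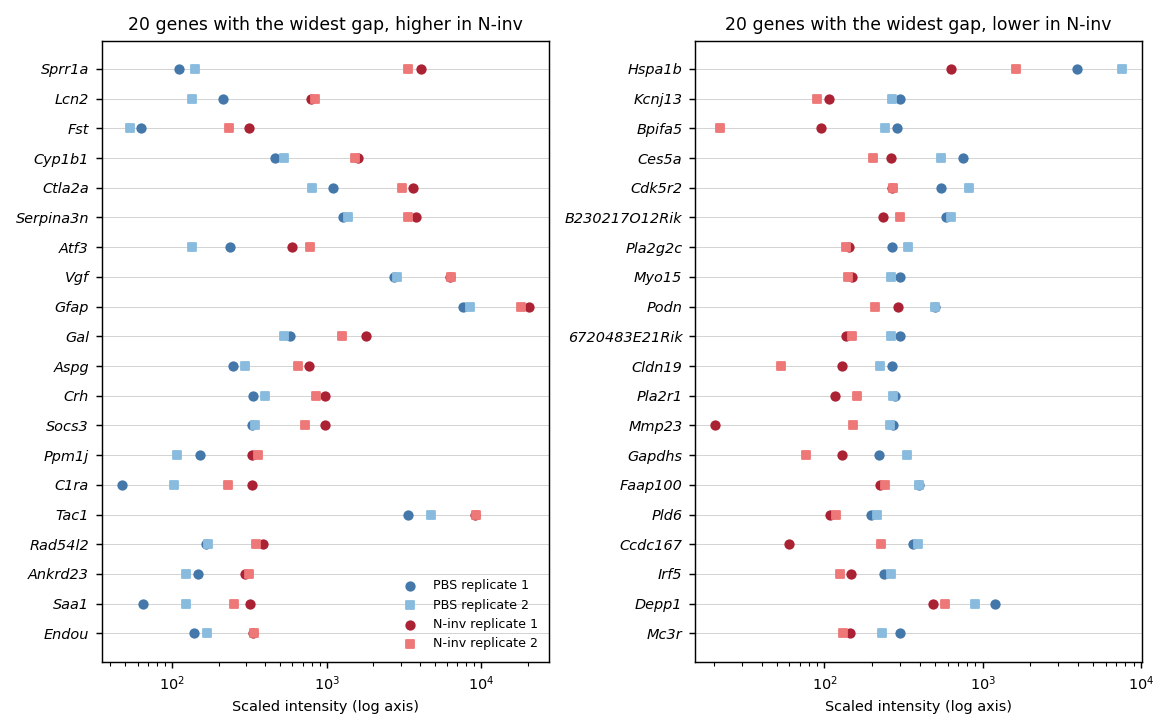
Scaled intensity in each of the 4 arrays, on a log axis, of the 20 genes on each side whose groups were separated most, higher in N-inv on the left and lower on the right, in order of the gap. Circles are replicate 1 and squares replicate 2, in blue for PBS and red for N-inv. The genes were chosen for this separation, so it is a description. Sprr1a spans from 111.4 to 4098, while Gfap is the brightest, from 7623 to 20190.

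Reactive astrocyte genes lay higher in N-inv, and genes of the resting functions of astrocytes had a median near that of all genes. Of 37 measured reactive genes 29 were higher and 8 lower, with a median of 0.28. In 22 the arrays did not overlap and N-inv was higher, where 22.2% of all genes did so. Of the 31 above the filter, 11 had an unadjusted p under 0.05 and were higher, against 3.92% of genes above the filter, and 0 were lower, against 1.95%. Counted by the 1.5-fold gap, 6 were apart, against 0.507%. Of 24 homeostatic astrocyte genes 17 were higher and 7 lower, with a median of 0.08, and 0 had an unadjusted p under 0.05. In a tissue sample, more cells of a type and more RNA per cell cannot be told apart.

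Gfap, the filament protein of astrocytes, measured 7623 and 8429 in PBS and 20190 and 17970 in N-inv with its brightest probe set. The means were 8026 ± 570 and 19080 ± 1570 (SD, n = 2 each), a ratio of 2.38, and the groups did not overlap. The log2 difference was 1.25 ± 0.14 (SE; limma's adjusted p = 0.488, or 6.25e-05 with the trend). Its other 2 probe sets gave log2 differences of 1.34 and 1.45. The acute phase protease inhibitor Serpina3n measured 1274 and 1381 in PBS and 3787 and 3339 in N-inv, and Lcn2, which binds bacterial iron carriers, 215.3 and 133.8 against 788.6 and 845.4. Aspg, an asparaginase found in reactive astrocytes, measured 246.6 and 294.5 in PBS and 770.7 and 649.6 in N-inv. Each of these 4 genes had its N-inv arrays more than 1.5-fold above its PBS arrays, and each was called with the trend. Nes, looked up after the values were seen, had a log2 difference of -0.10. Cp, looked up in the same way, gave -0.19 with its brightest probe set and between 0.09 and 0.43 with the other 6 above the filter, so its probe sets disagree in direction.

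Among homeostatic genes the neurotensin receptor Ntsr2 measured 9412 and 10300 in PBS and 12880 and 11870 in N-inv, and the potassium channel Kcnj10 38220 and 37480 against 43870 and 45630. The GABA transporter Slc6a11 lay the other way, at 1421 and 1471 in PBS and 1247 and 1009 in N-inv. The glutamate transporter Slc1a3 did so too, at 1867 and 2274 against 1737 and 1621. None of these had an unadjusted p under 0.05. Slc14a1, a urea transporter of astrocytes, and Itih3, a hyaluronan-binding serum protein, stand outside the lists and were chosen because the trend fit called them. Slc14a1 measured 840.9 and 955.6 in PBS and 1712 and 1521 in N-inv. Itih3 measured 10170 and 9296 in PBS and 14990 and 15650 in N-inv.

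The JAK-STAT3 list as a whole had a median of 0.06, near that of all genes, with single members further off in both directions. Of 25 measured genes 17 were higher and 8 lower. Of the 19 above the filter, 5 were higher with an unadjusted p under 0.05, against 3.92% of genes above the filter, and 0 were lower, against 1.95%. Osmr, the receptor subunit for oncostatin M, measured 773.6 and 841.8 in PBS and 1607 and 1508 in N-inv. Stat3 measured 2068 and 1830 in PBS and 2968 and 2960 in N-inv, by its brightest probe set, and its other 2 probe sets above the filter gave smaller differences of 0.26 and 0.22. Socs3, the inhibitor that STAT3 induces and whose promoter is shown with its STAT motif, measured 330.9 and 343.8 in PBS and 977.6 and 725.9 in N-inv. The log2 differences were 0.93, 0.60 and 1.26 for Osmr, Stat3 and Socs3, with adjusted p of 0.558, 0.625 and 0.558 in limma. With the trend Osmr and Socs3 were called and Stat3 was not. Pias3, an inhibitor of STAT3, was also higher, at 624.1 and 548.8 in PBS against 792.6 and 885.9, and Junb at 412.4 and 383.7 against 526.6 and 520.6. Other members had a lower mean in N-inv. Cntfr, the receptor subunit for ciliary neurotrophic factor, measured 496.1 and 791.8 in PBS and 571.2 and 332.6 in N-inv, a log2 difference of -0.50 with overlapping groups. The transcription factor Fosl2 and the kinase Tyk2 had log2 differences of -0.34 and -0.26, and each of these 3 genes had an unadjusted p of at least 0.109 in limma.

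Microglia had the highest median of any list with more than 5 measured genes. Of 29 measured genes 26 were higher in N-inv and 3 lower, with a median log2 difference of 0.44 and a range from -0.21 to 0.95. In 21 the arrays did not overlap and N-inv was higher, against 22.2% of all genes, and in 1 it was lower, against 14.5%. Of the 26 above the filter, 16 were higher with an unadjusted p under 0.05, against 3.92% of genes above the filter, and 0 were lower, against 1.95%. By the 1.5-fold gap 4 were apart, against 0.507%. The list's median deviation from the mean of the 4 arrays was -0.23 and -0.16 for PBS and 0.26 and 0.16 for N-inv. The summed intensity of the list was 41620 and 42290 in PBS and 64400 and 57430 in N-inv.

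The fractalkine receptor Cx3cr1, by which microglia sense neurons, measured 815.2 and 978 in PBS and 1673 and 1531 in N-inv. The lysosomal protease Ctss measured 9341 and 9385 in PBS and 15650 and 15470 in N-inv, a log2 difference of 0.73 ± 0.12 (SE; limma's adjusted p = 0.579, or 0.00194 with the trend). The pore-forming protein Mpeg1 measured 903.7 and 990 in PBS and 1854 and 1565 in N-inv. These 3 genes were called with the trend, and in each the groups stood clearly apart. Tyrobp, the signalling adaptor of microglial surface receptors, measured 717.1 and 671.7 in PBS and 1125 and 1273 in N-inv. Slco2b1, an organic anion transporter, measured 800.5 and 746.2 against 1372 and 1210, and the transcription factor Irf8 374.8 and 338.1 against 541.8 and 565.1. Aif1, which encodes the marker IBA1, measured 240.5 and 163.6 in PBS and 360.5 and 463.4 in N-inv, a log2 difference of 0.95 ± 0.22 (SE). The microglial genes P2ry12 and Tmem119 were looked up after the values were seen. P2ry12 measured 789.4 and 748.4 in PBS and 931.3 and 1030 in N-inv, and Tmem119 513.7 and 776.2 against 869.4 and 944.1. Itgam and Trem2 lay below the filter.

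Genes of the activated, phagocytic state of microglia and of the lysosome lay higher by smaller amounts. Of 23 activation genes 19 were higher and 4 lower, with a median of 0.25, and 2 of the 19 above the filter were higher with an unadjusted p under 0.05, against 3.92% of genes above the filter. Lgals3, a sugar-binding protein of phagocytes, measured 324.3 and 236.4 in PBS and 402.8 and 427.9 in N-inv, and the aspartic protease Ctsd 8768 and 8277 against 10750 and 10870. Of 27 lysosomal genes, all above the filter, 23 were higher and 4 lower, with a median of 0.20. In 16 of these the arrays did not overlap and N-inv was higher, against 25.3% of genes above the filter, and in 0 N-inv was lower, against 12.5%. Besides Ctss and Ctsd, the cathepsin Ctsh measured 997.2 and 801.7 in PBS and 1233 and 1378 in N-inv, and the phagosome marker Cd68 392.8 and 344.1 against 517.1 and 482.7.

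Genes of macrophages of the vessel walls and meninges had no such excess on the higher side. Of 12 genes of perivascular macrophages 4 were higher and 8 lower, with a median of -0.09, and the N-inv arrays lay above the PBS arrays without overlap in 0 of them, against 22.2% of all genes. The scavenger receptor Cd163 measured 430.3 and 427.1 in PBS and 328.9 and 285.4 in N-inv, a log2 difference of -0.45 ± 0.13 (SE; limma's adjusted p = 0.661). F13a1, a clotting factor subunit made by these macrophages, measured 482.4 and 436.2 against 367.9 and 390.8. The mannose receptor Mrc1 overlapped between the groups, at 554.3 and 607.2 against 586.7 and 613.7. The difference between this list and the microglia list was not tested.

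Among complement genes the C1q chains were higher in N-inv. They start the classical pathway and are made in cord by microglia. C1qa measured 1313 and 1274 in PBS and 2377 and 2160 in N-inv, C1qb 1080 and 1203 against 2107 and 1778, and C1qc 949.6 and 850.3 against 1589 and 1586. The log2 differences of the 3 chains were 0.80, 0.75 and 0.80, and each chain had a probe set called with the trend. The protease C1ra, which C1q activates, was at 47.59 and 103.7 in PBS and 328.4 and 230.7 in N-inv, with both PBS arrays under the filter value. Itgb2, a chain of complement receptors on phagocytes, measured 334.6 and 326.6 in PBS and 466.4 and 531.9 in N-inv. C2, the protease of the next step, lay lower, at 442.1 and 456.8 in PBS and 325.7 and 359.1 in N-inv. Over the whole list, 13 of 20 measured genes were higher and 7 lower, with a median of 0.18.

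**Figure D3:**
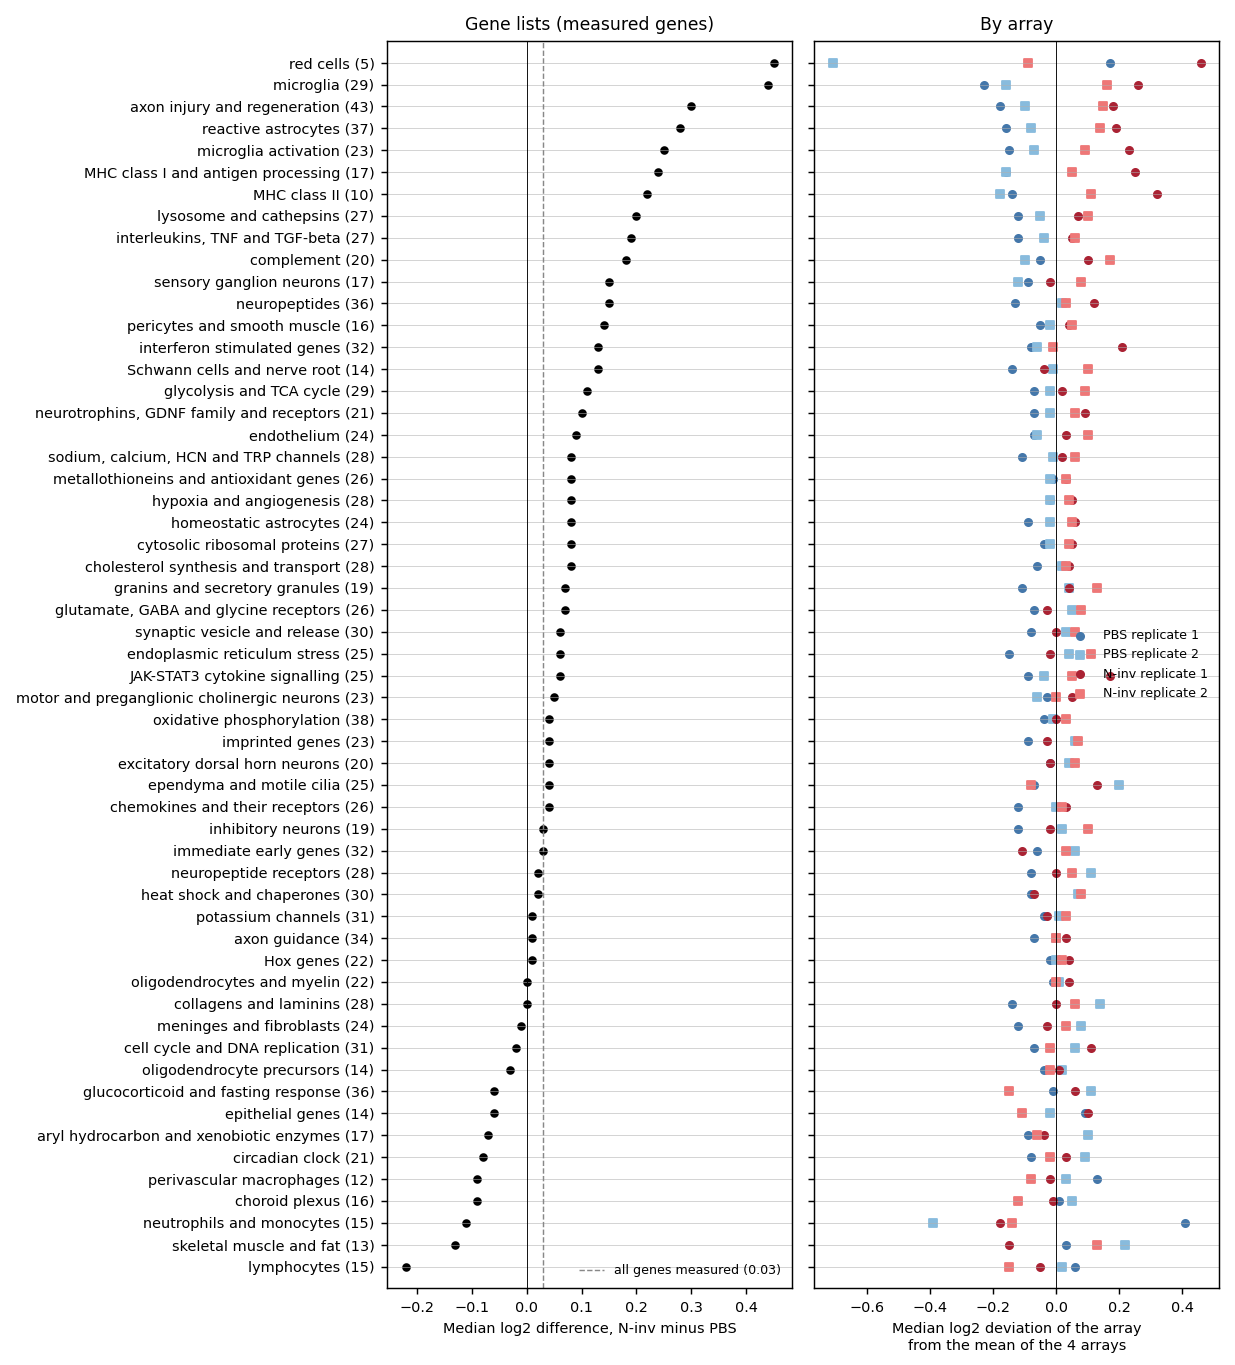
The left panel gives the median log2 difference, N-inv minus PBS, of the measured genes of 56 gene lists, with the number of genes in brackets and the median over all genes, 0.03, as a dashed line. The right panel gives each array's median deviation from the mean of the 4 arrays. Microglia (0.44), axon injury (0.30) and reactive astrocytes (0.28) have both N-inv arrays above both PBS arrays, while the red cell list of 5 genes has arrays of the groups interleaved.

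Genes that present antigen on MHC class I lay higher, with N-inv replicate 1 above replicate 2. Of 17 measured genes 16 were higher and 1 lower, with a median of 0.24. In 9 N-inv was higher without overlap, against 22.2% of all genes. The list's median deviation from the mean of the 4 arrays was 0.25 in N-inv replicate 1, 0.05 in replicate 2 and -0.16 in each PBS array. The heavy chain H2-D1 measured 5119 and 4940 in PBS and 8801 and 7309 in N-inv, and 3 of its probe sets were called with the trend. H2-K1 measured 3309 and 3098 in PBS and 5212 and 4242 in N-inv, and the light chain B2m 7864 and 7002 against 11270 and 9617. The probe sets of H2-D1 and H2-K1 may not tell these heavy chains apart, which was not tested. The immunoproteasome subunit Psmb10 measured 1318 and 1490 against 1950 and 1911. In all 4 genes the N-inv arrays were the higher ones.

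MHC class II genes showed an array-specific pattern. Of 10 measured genes 9 were higher in the mean, but 3 lay higher without overlap, a share near the 22.2% of all genes. H2-Eb1 measured 629.2 and 646.6 in PBS, 1614 in N-inv replicate 1 and 561.7 in N-inv replicate 2. H2-Ab1 measured 733 and 901.1 in PBS, 1286 in N-inv replicate 1 and 695 in replicate 2, and Cd74, the invariant chain, 542.8 and 581.7, 812.4 and 540. These 3 genes were high in N-inv replicate 1 alone. H2-Aa lay above PBS in both arrays, at 870.5 and 761.3 in PBS and 1373 and 1016 in N-inv.

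Interferon-stimulated genes as a list lay higher in N-inv replicate 1 than in replicate 2, though single members lay above PBS in both N-inv arrays. Of 32 measured genes 25 were higher and 7 lower, with a median of 0.13, and the list's median deviation from the mean of the arrays was 0.21 in N-inv replicate 1 and -0.01 in replicate 2. The guanylate-binding protein Gbp6 measured 313.4 and 287.5 in PBS and 693.1 and 489.9 in N-inv, a log2 difference of 0.90 ± 0.20 (SE; limma's adjusted p = 0.631). Irgm2, another GTPase induced by interferon, measured 189.6 and 191 against 279.9 and 325. The antiviral enzyme Rsad2 measured 401.4 and 307.8 against 527.5 and 466.4. In 12 of the 32 genes N-inv was higher without overlap, against 22.2% of all genes, and in 2 it was lower, against 14.5%. Ifit1, Usp18 and Stat2 had lower means in N-inv, with log2 differences of -0.38, -0.48 and -0.19.

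Of cytokine genes and their receptors, a share near the 56.0% of all genes had a higher mean in N-inv. Of 27 interleukin, TNF and TGF-beta genes 17 were higher and 10 lower, with a median of 0.19, and 19 passed the filter. In 10 of the 27 N-inv was higher without overlap, against 22.2% of all genes, and in 2 it was lower, against 14.5%. Of the 19, 3 were higher at an unadjusted p under 0.05 in limma, against 3.92% of genes above the filter. At that threshold 1 was lower, against 1.95%. The interleukin 1 receptor Il1r1 measured 158.9 and 317.2 in PBS and 621.9 and 427.8 in N-inv. The TNF receptor Tnfrsf1a measured 893.6 and 1320 in PBS and 2114 and 1690 in N-inv, and the TGF-beta receptor Tgfbr2 2030 and 1992 against 2500 and 2870. These 3 receptors had unadjusted p of 0.0254, 0.0208 and 0.0281 and adjusted p between 0.672 and 0.681 in limma. Nfkbia, the inhibitor of NF-kappa B, lay the other way, at 14850 and 19620 in PBS and 12660 and 10480 in N-inv. Among 26 chemokines and receptors, 15 were higher and 11 lower, and the median was 0.04. The monocyte attractants Ccl7 and Ccl12 were higher, Ccl7 at 135.8 and 62.51 in PBS and 364 and 250.2 in N-inv and Ccl12 at 144.1 and 138.7 against 217.5 and 212.5. Both had a PBS mean under the filter value of 151.8 and passed the filter through N-inv alone, so they had to differ and their direction supports nothing. The scavenging receptor Ackr3 was lower, at 1481 and 1557 in PBS and 1173 and 1147 in N-inv.

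Neuropeptide genes differed in both directions, and 5 of the 28 above the filter lay higher by the 1.5-fold gap, against 0.507% of genes above the filter. Of 36 measured genes 23 were higher and 13 lower, with a median of 0.15. Of the 28 above the filter, 10 were higher at an unadjusted p under 0.05, against 3.92% of genes above the filter, and 1 was lower, against 1.95%. Of all 36, the arrays did not overlap in 13 higher and 8 lower genes, where 22.2% and 14.5% of all genes did so. Several of the peptides that led the list are made by dorsal horn neurons. Tac1, the precursor of substance P, measured 3349 and 4727 in PBS and 9069 and 9226 in N-inv, a log2 difference of 1.20 ± 0.20 (SE; limma's adjusted p = 0.579, or 0.00223 with the trend). Gal, the precursor of galanin, measured 577.8 and 528 in PBS and 1786 and 1247 in N-inv. Crh, the corticotropin-releasing hormone, measured 335.4 and 397.9 in PBS and 968.6 and 855.9 in N-inv. Npy, the precursor of neuropeptide Y, measured 1174 and 1537 in PBS and 2866 and 2528 in N-inv. In these 4 genes the lower N-inv array exceeded the higher PBS array by between 1.63-fold and 2.11-fold, and all 4 were called with the trend.

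The precursors of 3 opioid peptides are given singly, since they are no list of their own and none passed the adjusted threshold. Pdyn, the precursor of dynorphin, measured 184.6 and 150.5 in PBS and 363.7 and 440.8 in N-inv, a log2 difference of 1.15 ± 0.16 (SE). Pnoc, the precursor of nociceptin, measured 376.4 and 432.2 in PBS and 614.4 and 814.7 in N-inv. Penk, the precursor of enkephalins and the brightest of these, measured 7378 and 8940 in PBS and 11180 and 10940 in N-inv. It was chosen after its values were seen. Adm, the vasodilator adrenomedullin, lay the other way, at 608.6 and 494.9 in PBS and 409.8 and 274.1 in N-inv, and its second probe set had a log2 difference of -0.48. Calcb, a calcitonin gene-related peptide of motor neurons, measured 1882 and 1830 in PBS and 1621 and 1625 in N-inv. Its difference of -0.19 had an unadjusted p of 0.167 in limma, although the groups did not overlap.

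**Figure D4:**
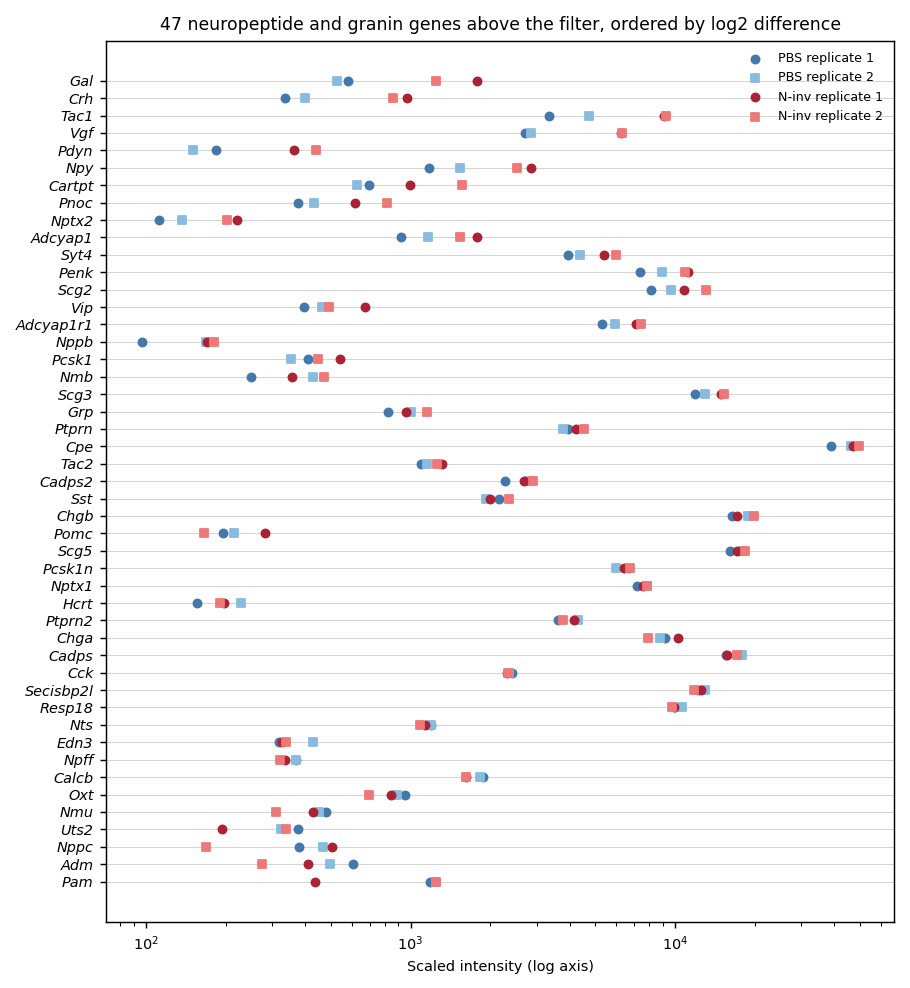
Scaled intensity in each of the 4 arrays, on a log axis, of the 47 neuropeptide and granin genes above the filter, ordered by log2 difference with the highest at the top. Gal, Crh, Tac1, Vgf and Pdyn have both N-inv arrays (red) far above both PBS arrays (blue), most genes in the middle overlap or nearly so, and Pam at the bottom is low in N-inv replicate 1 alone.

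Of the granins and granule proteins, which pack and release peptides, 15 of 19 genes were higher and 4 lower, with a median of 0.07, so that most stood near the median of all genes. Vgf, a neuronal secretory protein cut into several peptides, measured 2719 and 2849 in PBS and 6261 and 6325 in N-inv. Its log2 difference was 1.17 ± 0.12 (SE; limma's adjusted p = 0.481, or 0.000155 with the trend). The pentraxin Nptx2, released at synapses, measured 111.8 and 136.9 in PBS and 221.4 and 202.4 in N-inv, with PBS under the filter value, so that it passed the filter through N-inv alone, and Syt4, a vesicle protein, 3942 and 4374 against 5399 and 5965. Among peptide receptors 16 of 28 were higher and 12 lower, with a median of 0.02. Npy1r, a receptor for neuropeptide Y, measured 322.4 and 313.4 in PBS and 438.6 and 396.6 in N-inv, and Adcyap1r1, the PACAP receptor, 5283 and 5905 against 7136 and 7465. Their adjusted p in limma was 0.683 and 0.682.

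Ion channels and neurotransmitter receptors differed at single genes. Scn9a, the sodium channel of nociceptors and some motor and dorsal horn neurons, measured 146.3 and 253.4 in PBS and 604.7 and 433.2 in N-inv with its brightest probe set, and 4 of its 5 probe sets were higher in the mean. Trpv2, a cation channel of sensory and motor neurons, measured 873.7 and 1032 in PBS and 1797 and 1568 in N-inv. Trpc4 lay lower, at 359.2 and 377.2 in PBS and 265.1 and 214.1 in N-inv. Of 28 sodium, calcium, HCN and TRP channels 19 were higher and 9 lower, with a median of 0.08. Of 31 potassium channels 16 were higher and 15 lower, with a median of 0.01. Kcnj13, which is best known from epithelia, was the one with a wide gap, at 300.6 and 266.5 in PBS and 106.4 and 89.02 in N-inv. Among 26 receptors for glutamate, GABA and glycine the median was 0.07, with the GABA receptor subunit Gabra2 lower at 3607 and 3904 against 2860 and 2731 and Gabrg1 higher at 2494 and 2532 against 3061 and 3306.

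Markers of neuron classes had medians near that of all genes. The lists of excitatory dorsal horn, inhibitory, and motor and preganglionic cholinergic neurons had medians of 0.04, 0.03 and 0.05. In the first, 13 of 20 genes were higher, in the second 11 of 19 and in the third 15 of 23. The GDNF receptor subunits Gfra1 and Ret, which motor neurons carry, were higher, Gfra1 at 1722 and 2103 in PBS and 3593 and 2609 in N-inv and Ret at 2954 and 3366 against 3999 and 4217. Slc5a7, the choline transporter of cholinergic terminals, lay lower, at 242.2 and 168.4 in PBS and 135.1 and 71.07 in N-inv. Lmx1b, a factor of excitatory dorsal horn neurons, measured 529.4 and 487.2 in PBS and 416.9 and 316.5 in N-inv. The synaptic vesicle list had a median of 0.06, and 24 of 30 genes were higher. Bdnf had probe sets in opposite directions, with log2 differences of -0.32 and 0.62.

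Genes of sensory ganglion neurons and of Schwann cells were read because roots attached to the cord could add their RNA. The 17 measured sensory genes had a median of 0.15, with 12 higher and 5 lower, and their summed intensity was 16980 and 15440 in PBS and 21090 and 20340 in N-inv. Of the 8 above the filter, 7 were higher, with a median of 0.32. At an unadjusted p under 0.05 in limma 4 were higher, against 3.92% of genes above the filter, and 0 were lower, against 1.95%. The 4 were Scn9a, Th, Prph and Tubb3, of which cord and autonomic neurons make several too. Th, the enzyme of catecholamine synthesis, measured 290.8 and 329.1 in PBS and 550 and 646.9 in N-inv. The ganglion factor Pou4f1 measured 558.6 and 547.1 in PBS and 659.2 and 634.7 in N-inv, a log2 difference of 0.22. Isl1 and Prrxl1 had log2 differences of -0.03 and 0.05, but they also stand in the lists of motor and of excitatory dorsal horn neurons. Avil, a marker of ganglion neurons looked up after the values were seen, lay below the filter. The 14 Schwann cell and root genes had a median of 0.13, with 11 higher and 3 lower, and summed to 132900 and 144600 in PBS and 147700 and 154500 in N-inv. Their part in the neuropeptide, channel and axon injury values was not tested.

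Oligodendrocytes and their precursors showed no common direction. Of 22 myelin genes 11 were higher and 11 lower, with a median of 0.00. Within that list Myrf, the factor that drives myelin genes, measured 2934 and 2450 in PBS and 1837 and 2069 in N-inv, and the connexin Gjc3 1149 and 1158 against 797.1 and 886.5. Of 14 precursor genes 7 were higher and 7 lower. The matrix protein Matn4 measured 314.1 and 311.4 in PBS and 532.2 and 430.5 in N-inv, and the calcium channel subunit Cacng4 lay lower, at 1094 and 1937 against 900 and 735. The 34 axon guidance genes had a median of 0.01 and ranged from -0.24 to 0.73. The highest was Sema6a, a transmembrane guidance molecule, at 930.7 and 931.4 in PBS and 1549 and 1573 in N-inv.

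Vessel genes had a median difference near that of all genes, and Ctla2a stood far above it. Of 24 endothelial genes 16 were higher and 8 lower, with a median of 0.09. Ctla2a, a cathepsin inhibitor of endothelium and immune cells, measured 1093 and 803.3 in PBS and 3623 and 3064 in N-inv, a log2 difference of 1.80 ± 0.20 (SE; limma's adjusted p = 0.488, or 0.000199 with the trend). It has a near-identical copy, Ctla2b, so its probes may read both. Cdh5, the cadherin of endothelial junctions, measured 243.4 and 185.6 in PBS and 353.5 and 381.7 in N-inv, and the surface protein Podxl 931 and 940.9 against 1322 and 1226. Cyp1b1, a cytochrome P450 found in vessel walls and pericytes, measured 465 and 528.1 in PBS and 1582 and 1530 in N-inv. Its log2 difference was 1.60 ± 0.13 (SE; limma's adjusted p = 0.481, or 0.000505 with the trend). Other genes of the list of aryl hydrocarbon receptor and xenobiotic enzyme genes varied. Ahr differed by 0.06, Tiparp by -0.21 and Nqo1 by 0.10, while Ces5a differed by -1.38 and Fmo2 by -1.14. Of the 17 genes measured 7 were higher and 10 lower, with a median of -0.07. In 2 N-inv was higher without overlap, against 22.2% of all genes, and in 6 it was lower, against 14.5%. Lists of pericytes, meninges and collagens had medians of 0.14, -0.01 and 0.00. Fn1, the matrix protein fibronectin, measured 1613 and 1241 in PBS and 1921 and 2385 in N-inv, and Col1a1 473.6 and 521.2 against 395.3 and 334.4.

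Heat shock genes had no common direction. The list of 30 genes had a median of 0.02, with 15 higher and 15 lower. Hspa1b, the inducible chaperone of the Hsp70 family whose promoter is shown with its heat shock motif, measured 3944 and 7615 in PBS and 627.8 and 1623 in N-inv. All 3 of its probe sets were lower and called with the trend, and the brightest differed by -2.41 ± 0.53 (SE; limma's adjusted p = 0.631). Its near-identical neighbour Hspa1a measured 1459 and 2467 in PBS and 677.1 and 1044 in N-inv, and the probes may not tell these copies apart. The co-chaperone Dnajb1 also lay lower, at 7845 and 10430 against 5491 and 6898. In all 3 genes replicate 2 was the higher array of each group, and for Hspa1b the SD was 2600 in PBS and 703 in N-inv. Hspb1, a small heat shock protein that injured neurons and astrocytes make, lay the other way, at 2993 and 3115 in PBS and 4519 and 4894 in N-inv. Within the Hsp70 family, the mitochondrial chaperone Hspa9 measured 6876 and 8014 in PBS and 9125 and 8862 in N-inv, a log2 difference of 0.28. The constitutive chaperones Hspa8 and Hsp90aa1, looked up after the values were seen, differed by 0.09 and 0.11.

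**Figure D5:**
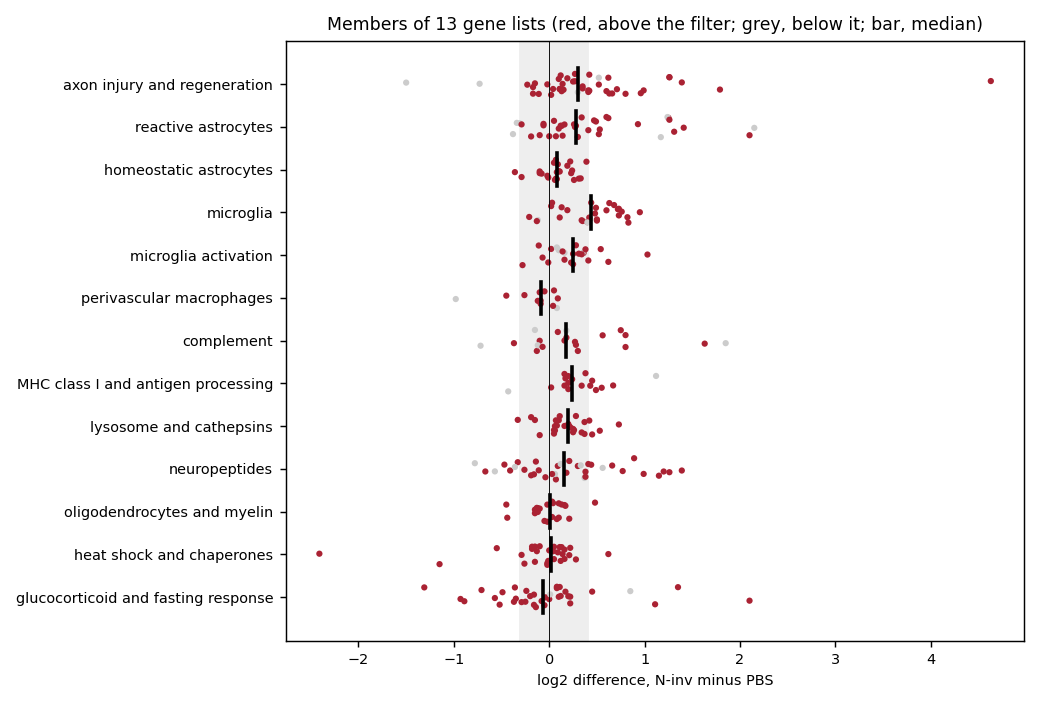
Each point is 1 measured gene of 13 gene lists, placed by its log2 difference, N-inv minus PBS. Red points lie above the intensity filter and grey points below it, the black bar is the list's median, and the grey band runs from the 5th to the 95th percentile of the genes above the filter, -0.31 to 0.41. Most microglia genes lie right of zero, with a median of 0.44, while the heat shock list is centred at 0.02 with Hspa1b at -2.41.

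Genes that respond to glucocorticoids and fasting were read because the title names cachexia. Of 36 measured genes 16 were higher and 20 lower, with a median of -0.06. Of the 34 above the filter, 4 were higher and 5 lower at an unadjusted p under 0.05, against 3.92% and 1.95% of genes above the filter. The 4 higher ones were Lcn2, Il1r1, Lrg1 and Mt1, with log2 differences of 2.10, 1.11, 1.35 and 0.45, and Lrg1 passed the filter through N-inv alone. Ddit4, an inhibitor of the growth kinase mTOR, measured 5177 and 6956 in PBS and 3037 and 3435 in N-inv, a log2 difference of -0.89 ± 0.19 (SE; limma's adjusted p = 0.610, or 0.0185 with the trend). Depp1, a target of FOXO factors, measured 1191 and 891.3 in PBS and 484.7 and 578.8 in N-inv. A second probe set of Depp1 measured 644.9 and 560.2 in PBS and 40.14 and 66.21 in N-inv, a log2 difference of -3.02. Ddit4 and Depp1 had both N-inv arrays below both PBS arrays. Sgk1, chosen after its values were seen, measured 23660 and 26950 in PBS, 17490 in N-inv replicate 1 and 5904 in replicate 2. The clock output gene Dbp was low in that array too, at 12110 and 11470 in PBS, 11490 in N-inv replicate 1 and 4880 in replicate 2. Per2, a core clock gene, was lower in both N-inv arrays, at 1113 and 1387 in PBS and 804.4 and 724.7 in N-inv, while Bhlhe40 was higher, at 2220 and 2623 against 3232 and 3281. The clock list of 21 genes had a median of -0.08, and the labels give no time of day.

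Activity-driven genes gave no common direction. Fos, the marker of recent neuronal firing, measured 6631 and 6388 in PBS and 6019 and 7658 in N-inv, and the groups overlapped. Of 32 immediate early genes 17 were higher and 15 lower, with a median of 0.03. Ccn2, a matrix-associated growth factor, lay lower, at 2150 and 2403 in PBS and 1776 and 1737 in N-inv.

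Genes of energy use and protein synthesis were slightly higher as groups. Of 29 glycolysis and citrate cycle genes 26 were higher and 3 lower, with a median of 0.11, and of 27 cytosolic ribosomal protein genes 24 were higher, with a median of 0.08. The lactate dehydrogenase Ldha measured 5255 and 7370 in PBS and 8276 and 8784 in N-inv. The lactate transporter Slc16a7 lay lower, at 240.8 and 314.7 in PBS and 152.6 and 134.7 in N-inv. Oxidative phosphorylation, with 38 genes between -0.10 and 0.18, had a median of 0.04. Whether these medians go beyond that of all genes, 0.03, was not tested, and neither was the part of the scaling of PBS replicate 1. Mt1, a metal-binding protein of astrocytes, measured 21260 and 19500 in PBS and 28290 and 27560 in N-inv and was called with the trend. The haem oxygenase Hmox1 lay lower, at 189.5 and 217.9 against 160.2 and 98.96. Abca1, a cholesterol exporter, measured 4169 and 5257 in PBS and 6242 and 7276 in N-inv.

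Cells from blood or outside the cord left small traces. Among 15 lymphocyte genes 1 lay above the filter, and the list median was -0.22. Of 15 neutrophil and monocyte genes 5 were higher and 10 lower, and 5 of the 8 above the filter had 1 group mean below its value. Ngp and S100a9 turned on PBS replicate 1. Ngp measured 822.9 in PBS replicate 1, 167.1 in PBS replicate 2 and 131.3 and 147.1 in N-inv. S100a9 measured 431.1 and 78.79 in PBS and 62.18 and 83.55 in N-inv. Ltf was lower in both N-inv arrays, at 378.9 and 272.3 in PBS and 183.7 and 98.65 in N-inv, and passed the filter through PBS alone. Lcn2, also in this list, lay the other way by 2.10. The receptor Csf3r did so too, at 236.1 and 191.3 in PBS and 364.7 and 435.5 in N-inv. Of 25 genes of ependyma and motile cilia 13 were higher and 12 lower. In 6 N-inv was higher without overlap, against 22.2% of all genes, and in 6 it was lower, against 14.5%. The cilium genes Ak7, Rsph1 and Ccdc153 lay lower in both N-inv arrays, and Vim, Cfap126 and Rarres2 lay higher in both. Ak7 measured 448.3 and 510.9 in PBS and 230 and 326 in N-inv. In the choroid plexus list, which tests for stray epithelium, Ttr was below the filter in the mean, and 4 of 16 genes were higher. Epithelial genes, 5 of 14 above the filter, had a median of -0.06.

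Other genes with a wide gap on the higher side belong to no group described so far. Fst, the activin inhibitor follistatin, measured 63.42 and 53.41 in PBS and 313.7 and 233.6 in N-inv, with PBS under the filter value. The acute phase protein Saa1 measured 65.35 and 123.2 against 321.5 and 250, the phosphatase Ppm1j 152.6 and 107.9 against 328.9 and 358.9, and Ankrd23 146.3 and 123.3 against 298.5 and 316.9. Endou, an endoribonuclease, measured 138.2 and 167.9 in PBS and 332.8 and 340.2 in N-inv. All of these were dim in PBS, and Fst, Saa1, Ppm1j and Ankrd23 passed the filter through N-inv alone. Nnat, an imprinted membrane protein of neurons, was brighter, at 1329 and 1573 in PBS and 2951 and 2844 in N-inv, and was called with the trend. Ctxn1, a neuronal membrane protein, and Plce1, a phospholipase C, were chosen because the trend fit called them. Ctxn1 measured 851.3 and 813.8 against 1494 and 1696, and Plce1 3707 and 3713 against 5620 and 5640.

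On the lower side most genes with a wide gap were dim, and those with an N-inv mean under 151.8 passed the filter through PBS alone. The same holds for Slc5a7, Slc16a7, Hmox1, Ccdc153, Ngp and S100a9 above. Ces5a, a carboxylesterase, measured 754.7 and 544.1 in PBS and 261.5 and 204.1 in N-inv and was called with the trend. Cdk5r2, an activator of the neuronal kinase Cdk5, measured 547.5 and 821.5 in PBS and 268.9 and 270.1 in N-inv. The secreted protein Bpifa5 measured 285.8 and 239.8 in PBS and 94.53 and 21.9 in N-inv. Podn, a matrix proteoglycan, measured 501.1 and 497.5 in PBS and 293.1 and 208.7 in N-inv, and Cldn19, a tight junction protein of Schwann cells and epithelia, 267.9 and 223.2 against 128.8 and 53.13. The melanocortin receptor Mc3r, known for its part in energy balance, measured 300.5 and 230.7 in PBS and 144.5 and 130 in N-inv. The remaining ones were Kcnj13, B230217O12Rik, Pla2g2c, 6720483E21Rik, Myo15, Mmp23, Pla2r1, Gapdhs, Faap100, Pld6, Ccdc167 and Irf5, with log2 differences between -0.70 and -1.69. Apart from Ces5a and Hspa1b, none of these 20 brightest probe sets was called with the trend.

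Probe sets of one gene did not always lie on the same side. Of 5905 genes with more than 1 probe set above the filter, 2651 had all of them on the same side. Among genes with a wide gap, Rad54l2 was higher by 1.03 with its brightest probe set, at 165.4 and 170.6 in PBS and 389.8 and 350.1 in N-inv, while the other differed by -0.37. Faap100 and Irf5 had log2 differences of -0.70 and -0.77 with their brightest probe sets, and 0.30 and 0.29 with other probe sets above the filter. Nono, an RNA-binding protein, had 1 of its 4 probe sets called lower with the trend, at 1500 and 1599 in PBS and 699 and 560 in N-inv, while its brightest differed by 0.09. For these 4 genes the direction rests on which probe set is read.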

How the data were processed

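Expression was measured in 2 N-inv and 2 PBS samples with Affymetrix 3′ arrays. Per the labels' protocols, TRIzol was used for extraction, and 100 ng of total RNA went into a two-cycle synthesis of cRNA with biotin. The authors deposited intensities per probe set on a linear scale, with a 2% trimmed mean of 1000 in each array, which is a scaling per array. The summarisation method and the scanner software are not given in the sources used here. Each array was scaled to a median of 253.5 and converted to log2(intensity + 25.35), where the pseudocount is that median divided by 10. Fold changes on this scale understate those of dim genes. Arrays have no depth, and the precision is limited by having 2 per group.

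Of 45101 probe sets, 64 controls were left out, and the 27022 with a mean intensity over the 4 arrays above the 40th percentile (151.8) were tested. The platform annotation gave several symbols for 932 probe sets and none for 9160, which were tested but not named, and 34741 matched the RefSeq table of GRCm38.p6. The brightest probe set stands for a gene. The test was limma's moderated one (version 3.58.1, R 4.3.3), two-sided, with 2 residual and 2.91 prior degrees of freedom, and Benjamini-Hochberg adjustment over all probe sets tested at a threshold of 0.05. Gene lists are described by counts and medians with no test of their own.

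The members of the comparison, the gene lists and the rule for named genes were chosen with earlier results of these data known. Genes named were those past the threshold, the 20 per direction with the widest gap between groups, up to 6 members with the smallest p and up to 3 lying the other way for each list, all members of short lists, Gfap, Aif1, Fos, Atf3, Xist and the Y-linked genes. Alternatives were the fit over all 6 arrays, quantile normalization, deposited scaling, other pseudocounts and filters, an intensity trend, a replicate block, the mean over probe sets and leaving out each array. The script was tested on simulated data of 27022 probe sets for this comparison. It called 49 of 67 probe sets changed by a log2 size of 1, 66 of 67 changed by 2 and 66 of 66 changed by 3, and 11 unchanged ones. The simulation draws variances that differ less between probe sets than those of the arrays may.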

Additional observations from a re-analysis of the deposited data

Results flagged for a closer look

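The 2 arrays of mice with Capan-1 cells under the skin (SC) took no part in the comparison, and 5 of the genes named there were flagged because both SC arrays lay beyond both PBS arrays on the side of N-inv by a log2 distance of at least 1 between the nearest arrays. Lcn2 measured 728.2 and 2503 in SC, against 215.3 and 133.8 in PBS and 788.6 and 845.4 in N-inv. Bpifa5 measured 9.442 and 87.99 in SC, against 285.8 and 239.8 in PBS. Gapdhs measured 26.51 and 68.17, Pla2r1 122.7 and 120.6 and Pld6 60.55 and 27.06, each below both PBS arrays. Among the 20 genes with the widest gap on each side, 10 of the higher and 10 of the lower genes had both SC arrays beyond both PBS arrays on the side of N-inv. The PBS arrays are shared by these comparisons, so this is no independent support for the differences between N-inv and PBS. Xist measured 12920 in SC replicate 2, although the label gives a male mouse, and 226.1 in SC replicate 1. In the same SC replicate 2, Eif2s3y measured 3118, Kdm5d 612.8 and Uty 493.2, all on the Y chromosome, against 2343 to 2623, 560.3 to 817 and 383.3 to 453.7 in the 4 arrays compared.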

How the results depend on the processing

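The number of calls depended on the setting. Limma called 0 probe sets with all 6 arrays in the fit, quantile normalization, deposited scaling, the pseudocount divided by 100 in place of 10, no filter, the replicate block or any 1 array left out (0 to 0), against 1 as reported, 1105 higher and 797 lower at an unadjusted p under 0.05, 8 with a filter at the 60th percentile and 55 with an intensity trend. In the settings with 0 calls the smallest adjusted p of each lay between 0.0649 and 0.655. The replicate numbers are shared between the groups in the labels. Across probe sets, the differences between replicates 1 and 2 in N-inv correlated by 0.016 with those in PBS. Such a correlation cannot show whether same-numbered arrays share an effect on fewer genes. Hspa1b, Hspa1a and Dnajb1 were higher in replicate 2 of both groups. With the replicate block the smallest adjusted p was 0.655. Where 1 array was left out, the lone array of its group is assumed to vary like the other group.

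Genes apart by 1.5-fold numbered 64 higher and 22 lower, 255 and 231 with no filter and 41 and 6 at the 60th percentile. The lower count was 8 with the median divided by 2.5 as pseudocount. With 1 array left out the counts ran from 143 to 235 higher and from 64 to 167 lower, as fewer arrays have to stand apart. Gfap differed by 1.25 in the trend fit too and passed there. It lay between 1.16 and 1.34 in every alternative run.

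Of 2285 values of 169 named genes under the alternatives, 21 were counted as a change of sign, all of genes near 0 or set by 1 array. With the mean over probe sets, a change of sign was counted only for a gene past the adjusted threshold. The 21 therefore leave out changes of sign in that setting for all other genes, such as those whose probe sets disagree. With quantile normalization Eif2s3y was at -0.01, Hspa8 at -0.03 and Mbp at -0.02, and with deposited scaling Eif2s3y was at -0.01. With each array left out in turn, the lowest and highest log2 differences were -0.07 and 0.18 for Ahr, -0.05 and 0.51 for Cd74, -0.43 and 0.05 for Cp, -0.06 and 0.10 for Eif2s3y, -0.11 and 0.23 for Fos, -0.22 and 0.65 for H2-Ab1, -0.18 and 1.31 for H2-Eb1, -0.11 and 0.29 for Hspa8, -0.14 and 0.08 for Isl1, -0.02 and 0.11 for Mrc1, -0.42 and 0.22 for Nes, -0.05 and 0.24 for Nqo1, -1.43 and 0.04 for Pam and -0.03 and 0.14 for Prrxl1. List medians ranged from 0.34 to 0.51 for microglia, from 0.25 to 0.35 for axon injury and from 0.23 to 0.35 for reactive astrocytes. Other lists held less well, and 139 of 798 list medians under the alternatives moved by more than the spread within groups. The range was 0.01 to 0.31 for sensory ganglion neurons and 0.06 to 0.24 for neuropeptides. It was 0.04 to 0.15 for glycolysis and -0.04 to 0.06 for oxidative phosphorylation. The causes were not tested. Intensity limits what dim genes can show, since below 151.8 small differences in intensity become large log2 differences.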
